A study of Mus musculus with 4 samples.

Results

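The 42 genes described here are type I interferon response genes, the antiviral program that cells switch on when interferon binds its receptor. They were named as a list, drawn up with earlier results of these data known, and all 42 were present in the deposited table among 13749 gene symbols. Each had a mean of at least 1 FPKM (fragments per kilobase of transcript, scaled to the fragments of the library) over the libraries, the level required for testing, as did 11083 genes in all. RNA was sequenced from LSK cells, the lineage-negative bone marrow cells with Sca-1 and Kit on their surface, among which hematopoietic stem cells and multipotent progenitors are found. The cells were sorted from C57BL/6 mice aged 8 weeks, 8 of them wild type (WT, Asxl1+/+) and 8 carrying a frameshift knock-in in a single copy of Asxl1 (KI, Asxl1G643fs/+). Asxl1 encodes a chromatin regulator that is often mutated in clonal hematopoiesis and myeloid malignancy. The labels gave 2 libraries per genotype, numbered 1 and 2 (WT-1, WT-2 and KI-1, KI-2), and did not say whether these were separate animals, pools or repeats of the same RNA. The p-values below therefore rest on a spread among libraries that may be technical only.

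Type I interferons bind the receptor IFNAR, whose kinases JAK1 and TYK2 activate STAT proteins. A complex of STAT2 and IRF9 then binds interferon-stimulated response elements (ISREs) in the promoters of responding genes. The products sense viral nucleic acids, degrade RNA, block translation and viral budding, or feed back on the pathway. In the bone marrow, acute interferon drives dormant stem cells into cycle, chronic exposure exhausts them, and low steady signalling keeps part of the program on without infection. Interferon also raises Sca-1 itself, the product of Ly6a and a marker of the LSK gate.

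The summed FPKM of the libraries ranged from 324255 to 411542, with both libraries numbered 2 above both numbered 1, and the sequencing depth is unknown. All 10 LSK marker genes were present, with Kit at 81.9, 105.3, 83.2 and 95.3 FPKM and Cd34 at 316, 434, 332 and 452 FPKM. Here and below, 4 values of a gene are ordered as WT-1, WT-2, then KI-1, KI-2. Of the 10 LSK markers, 6 were lower in KI in both numbers (25.5% of all tested genes) and 1 was higher in both (28.7%). Their median log2 fold change between KI and WT was -0.15, against 0.0075 for all tested genes, and 0 passed the test described below. Markers of mature cells were detected and differed between libraries. The sums of monocyte and macrophage, neutrophil and erythroid genes were each highest in KI-1. The summed FPKM of 7 monocyte and macrophage genes of 8 listed was 34.5 and 48.9 in WT and 92.4 and 64.1 in KI. That of 5 neutrophil genes of 6 listed was 60.3 and 134 in the libraries numbered 1 and 20.7 and 25.9 in those numbered 2, while 6 of 6 B cell genes summed to 23.5 and 26.9 in number 1 and 51.2 and 81.6 in number 2. Of 6 monocyte and macrophage genes tested with limma (below), 3 had an unadjusted p under 0.05 between genotypes (0.424% of all genes). After adjustment 0 passed. Higher in KI in both numbers were 5 of the 6 (28.7% of all genes). At an adjusted p under 0.05, 4 of 5 neutrophil genes were lower in number 2 (4.6%) and 5 of 5 tested B cell genes were higher (35.6%). In each of these lists, 3 of 5 genes were higher in KI in both numbers and 0 lower in both (28.7% and 25.5%). Erythroid genes, 5 of 5 listed, summed to 8.88, 8.95, 26.7 and 11.8 FPKM. T and NK genes, 4 of 7 listed, summed to 42.9, 51.9, 36.5 and 47.3 FPKM. No marker in the table was at exactly 0, though S100a8 and S100a9 were as low as 1.18 and 1.53 FPKM in KI-2. The part of these cells in the results below was not tested. In bulk samples, fewer cells of a type and less RNA per cell cannot be told apart.

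The promoters show what many of the 42 genes share beside their name. In RefSeq promoter sequences of GRCm38.p6, from 250 bases before to 50 after each transcription start, 33 of the 42 genes had an entry. The ISRE core, searched as GAAA followed after any 2 bases by GAAA, or the same with TTTC on the other strand, was found in 15 of the 33, or 45.5%, against 3.99% of 27025 genes with an entry. The interferon-gamma-activated element GAS, searched as TTCNNNGAA, which reads alike on both strands, was found in 9, or 27.3%, against 9.55% of all. Both motifs were in 4 promoters and neither in 13. A match describes letters and does not show binding. Shown first are the promoters of Rsad2, which had the smallest p among members with an entry in the comparison of KI with WT, and of Irf1 and Sp100, which had the highest levels. Isg15, Oas1a, Irgm1 and Eif2ak2 follow, chosen after their values were seen because their levels differed between the library numbers in opposite directions. Capitals mark ISRE and GAS matches, and each sequence reads from 5′ to 3′ on the strand of the gene.
Rsad2: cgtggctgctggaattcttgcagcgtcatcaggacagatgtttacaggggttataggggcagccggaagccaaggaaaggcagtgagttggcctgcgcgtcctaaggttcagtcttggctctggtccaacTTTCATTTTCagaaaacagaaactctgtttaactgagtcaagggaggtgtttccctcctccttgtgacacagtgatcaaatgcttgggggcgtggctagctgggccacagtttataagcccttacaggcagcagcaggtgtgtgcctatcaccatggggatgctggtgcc
Irf1: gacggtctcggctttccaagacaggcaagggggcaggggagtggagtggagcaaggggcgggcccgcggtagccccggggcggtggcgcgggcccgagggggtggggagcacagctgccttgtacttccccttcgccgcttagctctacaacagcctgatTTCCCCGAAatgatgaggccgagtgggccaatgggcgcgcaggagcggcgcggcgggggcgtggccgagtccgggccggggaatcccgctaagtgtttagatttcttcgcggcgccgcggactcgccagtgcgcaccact
Sp100: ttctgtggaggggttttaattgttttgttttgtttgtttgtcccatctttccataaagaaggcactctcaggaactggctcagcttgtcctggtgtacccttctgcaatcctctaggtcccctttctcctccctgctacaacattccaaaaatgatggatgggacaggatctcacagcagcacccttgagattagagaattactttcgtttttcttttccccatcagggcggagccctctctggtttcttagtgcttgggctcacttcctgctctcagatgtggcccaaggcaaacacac
Isg15: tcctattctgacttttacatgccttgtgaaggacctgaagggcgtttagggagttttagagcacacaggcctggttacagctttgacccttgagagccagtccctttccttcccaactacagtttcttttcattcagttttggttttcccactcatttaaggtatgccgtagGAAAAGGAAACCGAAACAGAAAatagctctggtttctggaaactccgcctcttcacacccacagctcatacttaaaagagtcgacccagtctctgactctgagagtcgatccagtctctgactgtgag
Oas1a: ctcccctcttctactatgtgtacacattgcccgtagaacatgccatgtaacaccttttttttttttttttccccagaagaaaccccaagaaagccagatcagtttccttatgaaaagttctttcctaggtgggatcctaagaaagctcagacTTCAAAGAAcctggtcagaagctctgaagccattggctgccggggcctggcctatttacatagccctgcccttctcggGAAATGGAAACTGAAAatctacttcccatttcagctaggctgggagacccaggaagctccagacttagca
Irgm1: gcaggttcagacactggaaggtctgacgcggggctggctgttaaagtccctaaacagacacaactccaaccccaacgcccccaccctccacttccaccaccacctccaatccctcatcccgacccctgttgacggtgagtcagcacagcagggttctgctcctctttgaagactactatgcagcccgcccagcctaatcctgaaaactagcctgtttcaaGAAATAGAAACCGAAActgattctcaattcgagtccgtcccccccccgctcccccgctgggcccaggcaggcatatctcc
Eif2ak2: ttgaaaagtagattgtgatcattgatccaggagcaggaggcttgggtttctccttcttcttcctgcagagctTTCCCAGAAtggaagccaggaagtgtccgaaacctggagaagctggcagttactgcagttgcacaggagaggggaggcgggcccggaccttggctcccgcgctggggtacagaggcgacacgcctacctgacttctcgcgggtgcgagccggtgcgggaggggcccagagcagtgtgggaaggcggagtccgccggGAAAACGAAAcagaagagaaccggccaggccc
These lie at chr12:26456403-26456702 (minus strand), chr11:53769764-53770063 (plus), chr1:85649738-85650037 (plus), chr4:156200769-156201068 (minus), chr5:120907476-120907775 (minus), chr11:48871371-48871670 (minus) and chr17:78882523-78882822 (minus) in the order shown. Isg15 held 3 overlapping ISRE matches, the first starting 78 bases before the transcription start (position -78), and Oas1a held 2, the first at position -20, with a GAS match at position -98. The 2 overlapping matches of Irgm1 began at position -30. In Rsad2 the ISRE stood at position -120 on the opposite strand. Irf1 held a GAS match, TTCCCCGAA, at position -90 and no ISRE, and Sp100 held neither in the window shown. Eif2ak2 held a GAS match at position -178 and an ISRE 19 bases after the start.

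The genes were expressed at moderate levels in LSK cells of both genotypes. Their median of mean FPKM was 15.2, against 11.8 over the 11083 tested genes, and 24 of 42 stood above the median gene. The highest were Sp100 at 85.6 and Irf1 at 70.3 FPKM on average, and the lowest were Mx2 at 1.15 and Ifit3 at 1.57. No interferon gene could be set beside them: the 9 listed, Ifnb1 and Ifng among them, had no row in the deposited table.

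**Figure D1:**
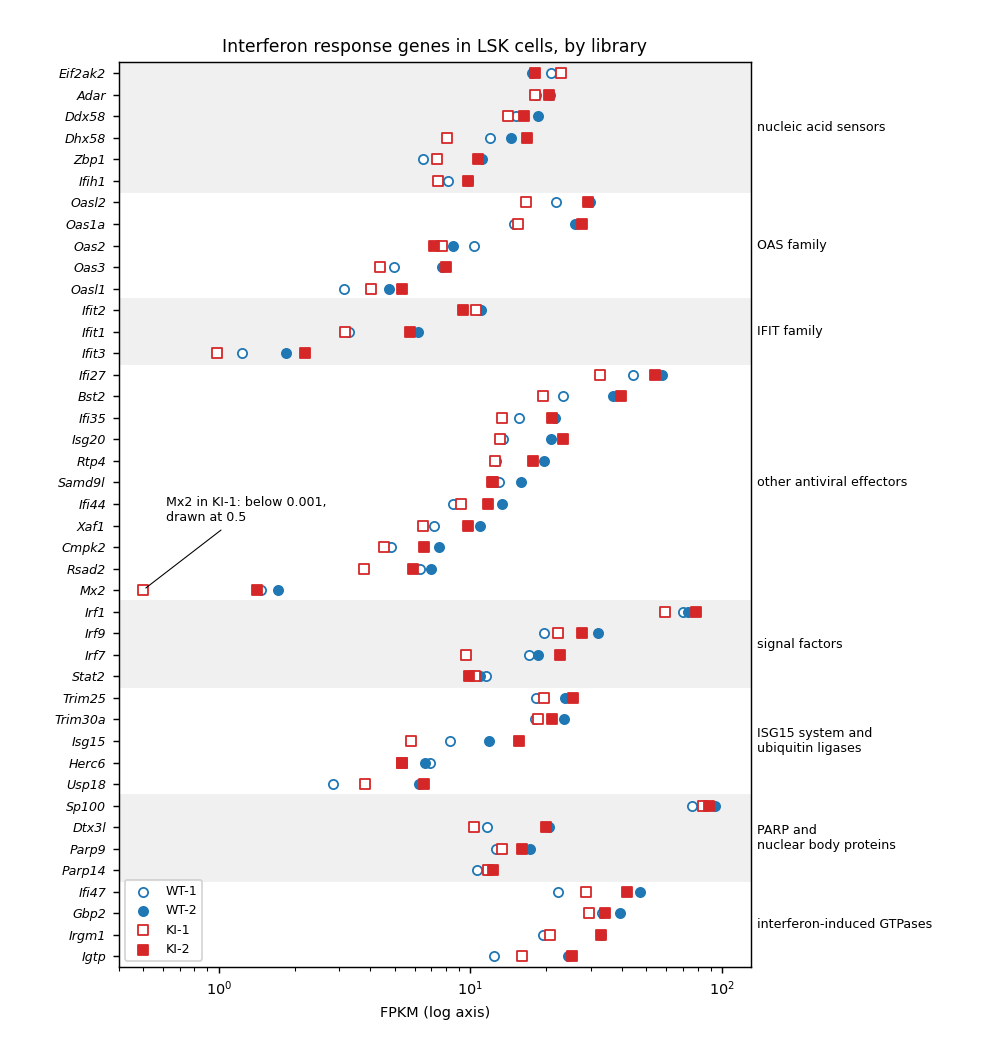
FPKM of the 42 interferon response genes on a log axis, grouped by role. Circles are WT and squares KI, open for libraries numbered 1 and filled for those numbered 2, each point being 1 library. In most rows the filled symbols stand to the right of the open ones, while circles and squares are intermixed.

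Among the sensors of foreign or misplaced nucleic acid, Ddx58, which encodes the RNA helicase RIG-I, stood at 15.1, 18.5, 14.1 and 16.3 FPKM. Ifih1, encoding the long double-stranded RNA sensor MDA5, stood at 8.18, 9.82, 7.41 and 9.80 FPKM. KI was the lower genotype within each number for both helicases, by at most 0.17 on the log2(FPKM + 1) scale. The third helicase of the family, Dhx58 (LGP2), stood at 11.9, 14.5, 8.06 and 16.8 FPKM, lower in KI in number 1 and higher in number 2. Eif2ak2, the kinase PKR that halts translation on double-stranded RNA, was the sensor whose libraries numbered 1 were the higher ones, at 20.9, 17.6, 22.9 and 18.0 FPKM. Zbp1, a sensor of Z-form nucleic acid that can trigger cell death, stood at 6.46, 11.1, 7.34 and 10.7 FPKM. Adar, which edits double-stranded RNA so that it is not sensed as foreign and which stem cells need, was nearly equal between genotypes, at 18.1, 20.6, 18.1 and 20.6 FPKM.

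The OAS genes encode oligoadenylate synthetases, whose product activates RNase L, and related proteins. Oas1a, Oas2 and Oas3 lie in 1 cluster on chromosome 5, and Oasl1 and Oasl2 form a pair elsewhere on it. Oas2, at chromosome 5, 120730333 to 120749886 (GRCm38), stood at 10.3, 8.51, 7.73 and 7.19 FPKM, so that both KI libraries lay below both WT libraries. Its neighbour Oas3, 3244 bases away, stood at 4.96, 7.73, 4.36 and 7.99 FPKM. Oas1a stood at 14.9, 25.99, 15.5 and 27.8 FPKM. For Oas3 and Oas1a the libraries numbered 2 were far above those numbered 1 and the genotypes overlapped. Oasl2, an OAS-like gene, stood at 22.0, 29.9, 16.6 and 29.3 FPKM. Oasl1, an inhibitor of Irf7 translation in mice, was the member higher in KI with the smallest p, at 3.15, 4.75, 4.03 and 5.36 FPKM.

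The IFIT genes, whose proteins bind viral RNA ends, lie side by side on chromosome 19. Ifit1 stood at 3.30, 6.18, 3.18 and 5.75 FPKM. Ifit3, close to the level required for testing, stood at 1.23, 1.84, 0.986 and 2.21 FPKM. Ifit2 stood at 11.04, 10.9, 10.5 and 9.32 FPKM. Ifit1 and Ifit3 separated by library number, whereas Ifit2 was about level, with both KI libraries just below both WT libraries.

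Among other antiviral effectors, Rsad2 encodes viperin, a radical-SAM enzyme that makes a chain-terminating nucleotide. It lies at chromosome 12, 26442743 to 26456452, and stood at 6.32, 6.96, 3.78 and 5.90 FPKM, with both KI libraries below both WT libraries. Cmpk2, a mitochondrial nucleotide kinase gene 12751 bases away on the opposite strand, stood at 4.82, 7.52, 4.55 and 6.53 FPKM. Cmpk2 was thus separated by library number, and Rsad2 by genotype. Both genes were nevertheless lower in KI within each number and higher in number 2 in both genotypes. Mx2 belongs to the antiviral dynamin-like GTPases, is annotated as a transcribed pseudogene in the mouse reference and lies at chromosome 16, 97536081 to 97560901. It stood at 1.48, 1.72, 0.000152 and 1.42 FPKM, so that its difference rests on KI-1, without which its log2 fold change between genotypes was -0.099.

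Bst2, encoding tetherin, which holds budding virus at the cell surface and also marks plasmacytoid dendritic cells, stood at 23.4, 36.9, 19.5 and 39.5 FPKM. Siglech, a defining marker of those cells, stood between 0.0526 and 0.911 FPKM, below the level required for testing. The 6 of 8 plasmacytoid dendritic genes in the table, Bst2 among them, summed to 32.0, 50.8, 30.2 and 58.4 FPKM. The 4 tested, which include Bst2, had a median log2 fold change of 0.71 between number 2 and 1, and 0.47 under median scaling. Only 1 of the 4, Bst2 itself, was called higher in number 2 (35.6% of all genes). Bst2 also made up most of the summed FPKM, so these values are not independent of it. The part of these cells in the level of Bst2 was not tested. Isg20, an exonuclease gene, stood at 13.4, 20.8, 13.1 and 23.3 FPKM. Rtp4, a chaperone gene induced by interferon, stood at 12.6, 19.5, 12.5 and 17.7 FPKM. In Bst2, Isg20 and Rtp4 the libraries separated by number. Samd9l, a growth-restraining gene mutated in inherited marrow failure in people, stood at 13.002, 15.9, 12.3 and 12.2 FPKM, and here both KI libraries lay below both WT libraries.

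Xaf1, a pro-apoptotic gene, stood at 7.17, 10.9, 6.51 and 9.77 FPKM. Ifi27, the most abundant gene of this group, stood at 44.3, 57.5, 32.8 and 54.2 FPKM. Xaf1 and Ifi27 were lower in KI within each number, though the genotypes overlapped. Ifi35 stood at 15.6, 21.7, 13.3 and 21.0 FPKM. Ifi44 stood at 8.55, 13.3, 9.14 and 11.7 FPKM. Both were separated by number.

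Of the factors that carry the signal, Stat2, the interferon-specific STAT, stood at 11.5, 10.9, 10.4 and 9.83 FPKM. Irf9, the DNA-binding partner of STAT2, stood at 19.6, 32.1, 22.2 and 27.8 FPKM. Irf7, which amplifies interferon production, stood at 17.1, 18.6, 9.63 and 22.7 FPKM. Only Stat2 of these 3 had both KI libraries below both WT libraries, and Irf7 moved in opposite directions in the library numbers, mainly through a low KI-1. Irf1, which is also induced by interferon-gamma, stood at 70.1, 73.3, 59.3 and 78.7 FPKM.

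The ISG15 system attaches a ubiquitin-like tag to proteins. The tag gene Isg15 stood at 8.29, 11.9, 5.79 and 15.6 FPKM. Its ligase gene Herc6 stood at 6.88, 6.57, 5.37 and 5.35 FPKM. Usp18, which removes the tag and also blocks the interferon receptor, stood at 2.85, 6.25, 3.83 and 6.53 FPKM. The tag and its ligase thus differed in pattern: Herc6 had tight pairs of libraries with KI below WT, and Isg15 spread widely with its extremes both in KI. Trim25, the ubiquitin ligase that activates RIG-I, stood at 18.3, 23.8, 19.5 and 25.5 FPKM, higher in KI within each number. Trim30a stood at 18.1, 23.6, 18.5 and 21.1 FPKM.

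Dtx3l and Parp9, whose proteins form a ubiquitin ligase pair, overlap head to head on chromosome 16, and Parp14 lies nearby. Dtx3l stood at 11.7, 20.4, 10.3 and 19.98 FPKM. Parp9 stood at 12.7, 17.2, 13.3 and 16.1 FPKM. Parp14 stood at 10.6, 11.7, 11.7 and 12.3 FPKM. Parp14 was the member whose KI libraries both lay above both WT libraries, by a small margin. Sp100, a nuclear body protein gene that restrains viral genomes, stood at 75.9, 93.9, 84.1 and 88.6 FPKM.

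The interferon-induced GTPases respond to both types of interferon and act on intracellular pathogens in mice, and Irgm1 is known to preserve stem cell quiescence. Irgm1 stood at 19.4, 32.9, 20.8 and 32.9 FPKM. Ifi47 stood at 22.2, 47.04, 28.9 and 41.8 FPKM. Igtp stood at 12.4, 24.3, 15.97 and 25.4 FPKM. All 3 were far higher in the libraries numbered 2, and the genotypes overlapped. Gbp2, a guanylate-binding protein gene, stood at 33.3, 39.2, 29.5 and 34.3 FPKM, lower in KI within each number.

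Between KI and WT, most of the 42 genes stood slightly lower in KI, and no gene passed the test. The median log2 fold change of the 42 was -0.065, against 0.0075 for all 11083 tested genes. Within number 1 the median difference was -0.069 and within number 2 -0.042, against 0.016 and -0.00038 for all genes. In 19 of the 42 genes KI was lower in both numbers, which held for 25.5% of all tested genes, and in 8 it was higher in both, which held for 28.7%. Of the other 15, 8 were lower in KI in number 1 and higher in number 2 (21.2% of all genes) and 7 the reverse (24.5%). Antiviral effectors other than the OAS and IFIT families contributed 8 of the 19, and all 3 of that group that were not lower in both moved in opposite directions. Because the genes were chosen with earlier results of these data known, these counts were not tested.

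With limma on genotype alone, 0 of 42 genes had an adjusted p under 0.05, as did 0 of 11083 (0%), and every adjusted p of the 42 was 0.99998. At an unadjusted p under 0.05 there were 0 of 42 and 0.424% of all genes. This fit leaves the difference between the library numbers in its spread, so it can miss genotype differences. With the number as a further term (the replicate block), 2 of 42 and 7.1% of all genes had an unadjusted p under 0.05. At an adjusted p under 0.05 there were then 0 of 42 and 1 of 11083. The 4 genes lower in KI with the smallest p were Mx2, Rsad2, Oas2 and Herc6. Mx2 had a WT mean of 1.595 ± 0.170 FPKM and a KI mean of 0.710 ± 1.004 (SD, n = 2 here and below), and its log2 fold change was -0.74 with SE 0.45 (limma, unadjusted p = 0.154). Rsad2 averaged 6.64 ± 0.456 and 4.84 ± 1.5002, a log2 fold change of -0.41 with SE 0.27 (limma, unadjusted p = 0.181). For Oas2 the means were 9.40 ± 1.26 and 7.46 ± 0.380, giving -0.29 with SE 0.23 (limma, unadjusted p = 0.244). Herc6 had the tightest replicates, 6.73 ± 0.218 and 5.36 ± 0.0118, and a log2 fold change of -0.28 with SE 0.22 (limma, unadjusted p = 0.253). That SE is larger than the replicates of Herc6 alone give, because limma draws the variance of each gene toward that of genes at the same level. In this fit those variances hold the difference between the library numbers. With the number as a further term the SE of Herc6 was 0.12.

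Of genes that stood higher in KI, the 4 with the smallest p were Oasl1, Igtp, Usp18 and Parp14. Oasl1 averaged 3.95 ± 1.13 and 4.69 ± 0.935 FPKM, a log2 fold change of 0.21 with SE 0.28 (limma, unadjusted p = 0.482). Igtp averaged 18.4 ± 8.44 and 20.7 ± 6.65 (0.20, SE 0.38, limma unadjusted p = 0.617) and Usp18 4.55 ± 2.41 and 5.18 ± 1.91 (0.19, SE 0.39, limma unadjusted p = 0.647). In these 3 the SDs are wide because they hold the difference between the library numbers. Parp14 averaged 11.2 ± 0.731 and 12.03 ± 0.441, a log2 fold change of 0.10 with SE 0.21 (limma, unadjusted p = 0.653). Without WT-1 the fold changes of Oasl1, Igtp and Usp18 turned negative, as did those of Igtp and Usp18 without KI-2.

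The genotypes did not overlap for 8 of the 42 genes. In 7 of them, Oas2, Ifit2, Rsad2, Mx2, Samd9l, Stat2 and Herc6, both KI libraries were the lower ones, as in 7.06% of tested genes, and in Parp14 they were the higher ones, as in 6.39%. None of these 8 was among the genes called between the library numbers below, a difference that by itself makes genotypes overlap. In the authors' deposited table, 13 of the 58 transcript rows of these genes had a raw p under 0.05, 8 lower and 5 higher in KI, beside 21.6% of all rows, and 0 had an adjusted p under 0.05. The smallest adjusted p of these rows there was 0.116, for Herc6, with a signed fold of -1.16. The sign of the group also depended on single libraries, because leaving 1 out unbalances the numbers. The median of the 42 genes was -0.289 without WT-1, 0.156 without WT-2, 0.138 without KI-1 and -0.271 without KI-2, and that of all genes -0.133, 0.137, 0.131 and -0.121.

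**Figure D2:**
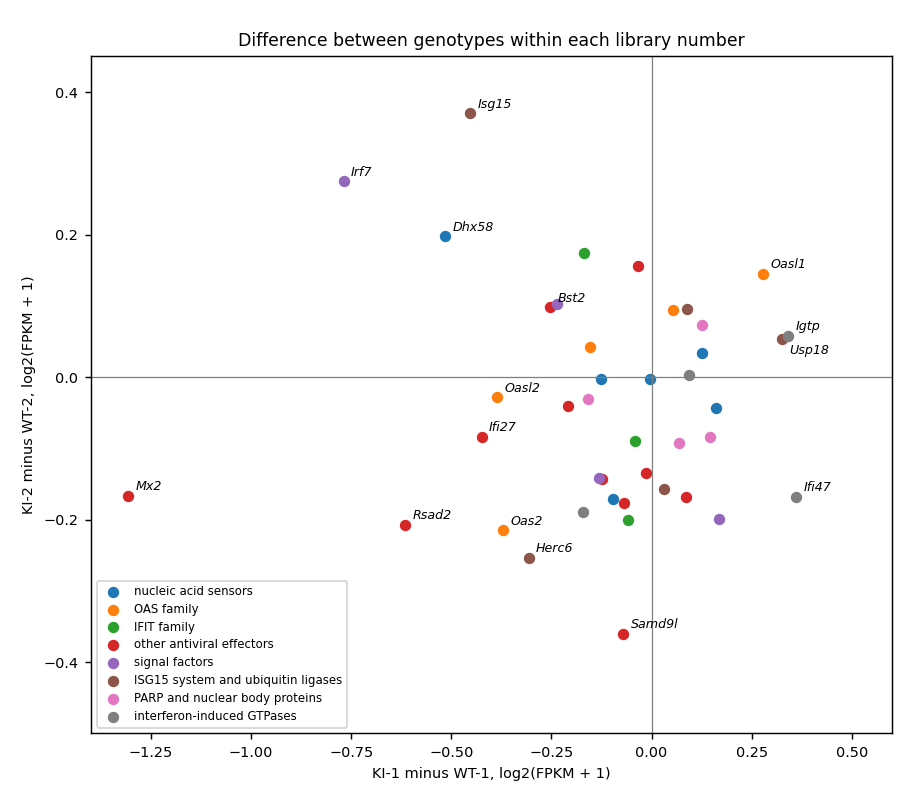
Difference between KI and WT in log2(FPKM + 1) for each of the 42 genes, in the libraries numbered 1 on the horizontal axis and in those numbered 2 on the vertical axis, coloured by role. The lower left holds the 19 genes lower in KI in both numbers, with Mx2 and Rsad2 at its left edge, and Isg15, Irf7 and Dhx58 stand at the upper left, lower in KI in number 1 and higher in number 2.

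Genes whose difference between genotypes turned with the number were led by Irf7, Dhx58 and Isg15, at -0.77, -0.52 and -0.45 within number 1 and 0.27, 0.20 and 0.37 within number 2 on the log2(FPKM + 1) scale. All 3 had their lowest value in KI-1 and their highest in KI-2. Ifi47 went the other way, at 0.36 and -0.17. With 4 libraries no spread is left to test whether the genotype difference depends on the number, and each value here is a difference of 1 library from 1 library.

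Between the libraries numbered 2 and 1, by contrast, 23 of the 42 genes were higher in number 2 by the test, 19 did not pass, and 5 of those 19 stood lower in both genotypes. The median log2 fold change was 0.51, against 0.27 for all tested genes, with 0.39 in WT and 0.48 in KI against 0.28 and 0.26 for all genes. The test was limma on library number alone, by which 23 were called higher and 0 lower, where 35.6% of tested genes were called higher and 4.6% lower. At an unadjusted p under 0.05 there were 29 of 42 and 51.4% of all genes. The libraries numbered 2 both lay above both numbered 1 in 33 genes (63.5% of all) and below them in 1, Eif2ak2 (12.7%). In 36 genes the library numbered 2 was the higher one in both genotypes, as in 69.1% of tested genes, and in 5, Eif2ak2, Oas2, Ifit2, Stat2 and Herc6, it was the lower one in both, as in 15.1%. The labels do not say what the number stands for, and the summed FPKM, neutrophil and B cell markers given above moved with it. Of the 10 LSK markers, 7 were also called higher in number 2 and 0 lower (35.6% and 4.6% of all genes). Their median log2 fold change was 0.47, and 0.22 under median scaling, where 1 was called higher and 1 lower (9.1% and 10.5%).

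The scale of the libraries enters these counts. Dividing each library by its median moved the median of all genes to 0.03, and that of the 42 genes to 0.26. All 23 called genes stayed higher in number 2 under median and quantile scaling, but 8 passed under median scaling (9.1% of all genes called higher) and 7 under quantile scaling (9.3%). The 7 common to both were Oas1a, Dtx3l, Irgm1, Bst2, Isg20, Igtp and Ifi47, and Ifit1 passed under median scaling but not under quantile scaling. Of genes that did not pass, Ddx58, Adar, Samd9l, Irf1, Parp14, Sp100 and Gbp2 were higher in number 2 as deposited and lower under median scaling. Eif2ak2 was called lower under both, where 10.5% and 10.4% of genes were, with a log2 fold change of -0.55 under median scaling (limma, adjusted p = 0.0138). Without WT-2 the test called 7 of the 42, and without KI-2 it called 6, with 11.3% and 9.13% of all genes called higher there. Bst2, Dtx3l, Irgm1, Isg20 and Oas1a were called in both.

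The largest fold changes among the called genes were those of Isg15, Dtx3l, Bst2 and Oas1a. Isg15 rose by a log2 fold change of 0.88 with SE 0.19 (limma, adjusted p = 0.0149), mostly in KI, where it went from 5.79 to 15.6 FPKM. Usp18 rose by 0.78 with SE 0.15 (adjusted p = 0.0114) and Trim25 by 0.37 with SE 0.09 (adjusted p = 0.0222). Of the GTPases, Ifi47 rose by 0.78 with SE 0.14 (adjusted p = 0.00818), Igtp by 0.78 with SE 0.13 (adjusted p = 0.00737) and Irgm1 by 0.69 with SE 0.09 (adjusted p = 0.00419). Gbp2, the other GTPase gene, did not pass. In the OAS family Oas1a rose by 0.79 with SE 0.09 and the smallest adjusted p of the 42 (0.00382), Oas3 by 0.65 with SE 0.12 (adjusted p = 0.00995) and Oasl2 by 0.61 with SE 0.14 (adjusted p = 0.0161). Oas2, of the same cluster as Oas1a and Oas3, was at -0.17 with SE 0.16 (adjusted p = 0.41).

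Of the other effectors, Bst2 rose by 0.81 with SE 0.11 (limma, adjusted p = 0.00486), Isg20 by 0.69 with SE 0.10 (0.00519), Ifi35 by 0.54 with SE 0.11 (0.0111), Ifi27 by 0.54 with SE 0.14 (0.0269) and Rtp4 by 0.53 with SE 0.10 (0.00927). Xaf1 rose by 0.53 with SE 0.12 (adjusted p = 0.0152), Cmpk2 by 0.49 with SE 0.13 (0.0249) and Ifi44 by 0.46 with SE 0.11 (0.0211). Thus 8 of the 11 effectors passed, and Rsad2, Mx2 and Samd9l did not. Ifit1 rose by 0.71 with SE 0.13 (adjusted p = 0.00892), and Ifit2 was at -0.09 with SE 0.11 (adjusted p = 0.536).

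Among sensors, Dhx58 rose by 0.62 with SE 0.18 (limma, adjusted p = 0.0364) and Zbp1 by 0.59 with SE 0.11 (0.0102). Eif2ak2 stood at -0.28 with SE 0.09 and did not pass (adjusted p = 0.0506), but was called lower with genotype as a further term (adjusted p = 0.0486) and with a mean of at least 5 FPKM required (adjusted p = 0.0416). Irf9 rose by 0.50 with SE 0.11 (adjusted p = 0.0155), and Stat2, its partner in the same complex, was at -0.07 with SE 0.11 (adjusted p = 0.603). Dtx3l rose by 0.82 with SE 0.10 (adjusted p = 0.00405) and Parp9, transcribed from the same region on the other strand, by 0.33 with SE 0.10 (adjusted p = 0.0353). Some of these calls ended under other settings. With no filter on low values, the limma adjusted p was 0.0729 for Dhx58, 0.0504 for Parp9, 0.0521 for Cmpk2 and 0.0535 for Ifi27. With the highest transcript row per symbol it was 0.159 for Zbp1, 0.0615 for Dhx58 and 0.0556 for Parp9.

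**Figure D3:**
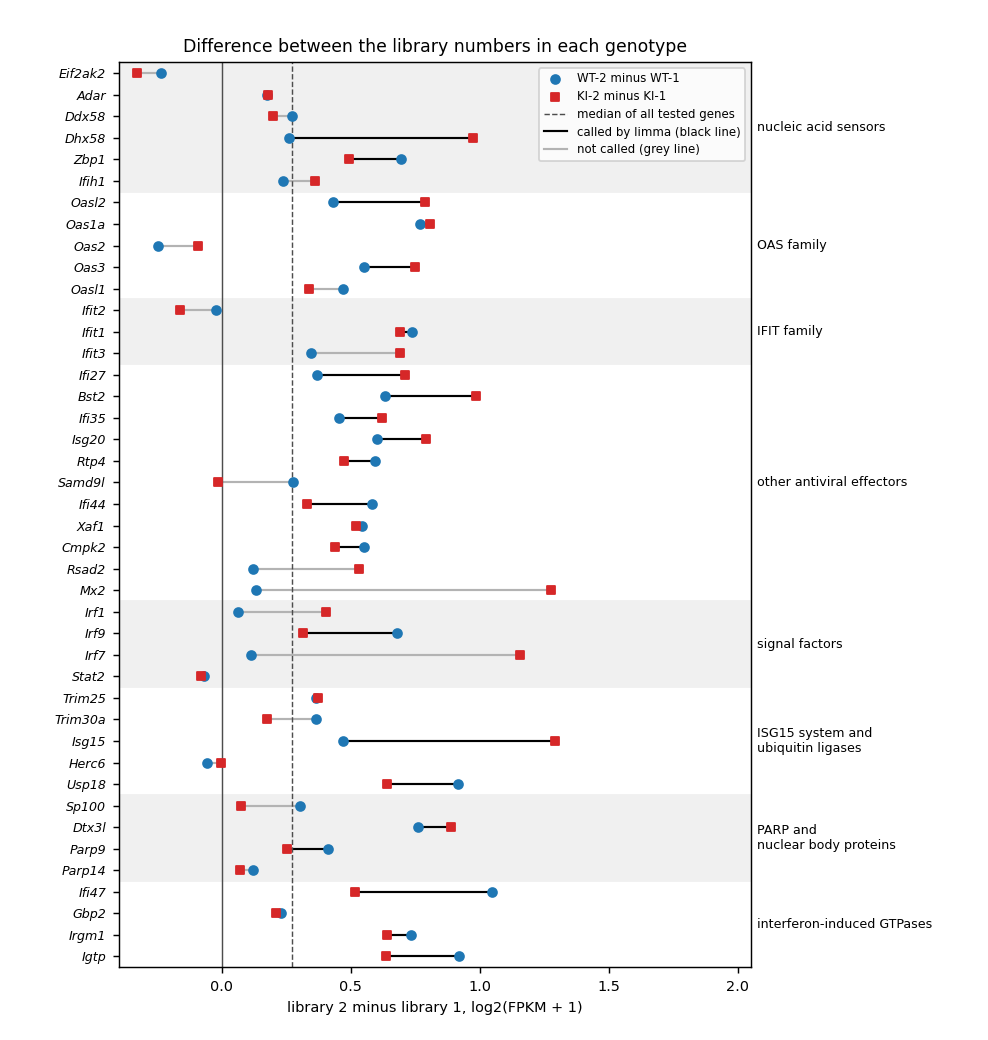
Difference between the libraries numbered 2 and 1 in log2(FPKM + 1) for each of the 42 genes, with WT as circles and KI as squares, joined by a black line where limma called the gene and a grey line where it did not. The dashed line is the median of all tested genes, 0.27. Most genes lie to its right in both genotypes, and Eif2ak2, Oas2, Ifit2, Stat2 and Herc6 lie left of 0 in both.

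ISRE matches stood both in genes called between the numbers and in genes not called. Of 15 genes with a match 7 were called, and of 18 without 10 were, with median log2 fold changes of 0.52 and 0.48. For all tested genes with a promoter entry the medians were 0.31 with a match and 0.27 without, and 45.1% and 40.03% were called. In KI against WT the medians of the 42 were -0.06 with a match and -0.08 without. Eif2ak2 and Isg15, whose promoters above each hold an ISRE, stood at opposite ends of the range between the numbers. These are descriptions over genes, and no match means only that these letters were not in the window.

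The 42 genes had 58 transcript rows in all, and 10 of these genes had more than 1 row. The split of a gene into rows is an estimate and shifted more than the sums. Adar has a long form that interferon induces, annotated here with proteins of 1152 and 1178 amino acids, and a shorter constitutive form of 930. The long rows summed to 13.9, 12.9, 9.38 and 14.6 FPKM and the short row stood at 4.20, 7.72, 8.71 and 5.94 FPKM. KI-1 thus had the lowest long and the highest short value, while its sum was close to that of WT-1.

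In several genes the rows that start at another site moved with the library number. Of Irf9, the row NM_008394 held 25.4% and 26.9% of the sum in WT-1 and KI-1 and 2.56% and 3.92% in WT-2 and KI-2. Of Isg20, the row NM_001291221 held 18.3% and 21.1% in number 1 and 1.68% and 4.66% in number 2. For Irf1, NM_001159396 held 6.89% and 15.5% in number 1 and 0.254% and 0.512% in number 2. These 3 rows were lower in number 2 in both genotypes while the sums of Irf9 and Isg20 rose. A second minor row of Irf9, NM_001159417, went the other way, at 1.199 and 2.75 FPKM in number 1 and 2.93 and 4.65 FPKM in number 2, in the order WT, KI. These shares were not tested. Zbp1 differed otherwise: its row for the protein of 411 amino acids held 74.7%, 57.4%, 40.2% and 47.2%, lower in KI within each number. Ifi27 had the row NM_194069 at 21.7 FPKM in WT-1 and between 6.67 and 12.3 FPKM in the other 3 libraries.

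**Figure D4:**
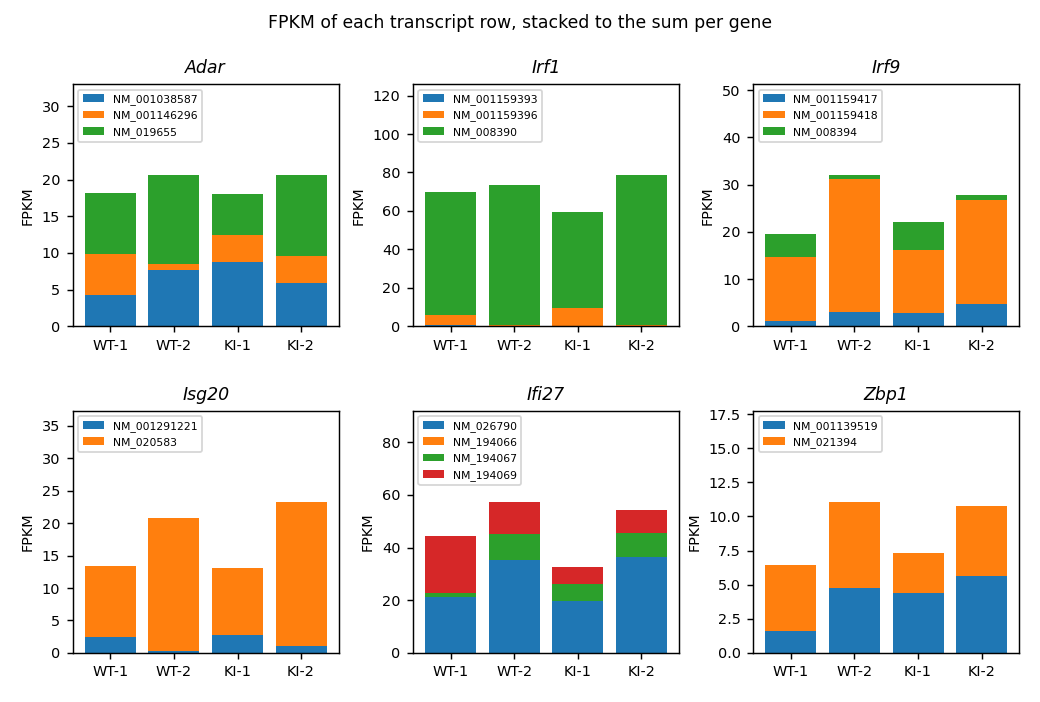
FPKM of the transcript rows of Adar, Irf1, Irf9, Isg20, Ifi27 and Zbp1 in each library, stacked so that the bar height is the sum per gene. The rows NM_001159396 of Irf1, NM_008394 of Irf9 and NM_001291221 of Isg20 are visible in WT-1 and KI-1 and nearly vanish in WT-2 and KI-2, and the rows of Adar trade places at similar bar heights.

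Some values can hold reads of other genes. In GENCODE M21 annotation (GRCm38), Igtp overlaps Irgm2 by 7974 bases on the same strand, Ifi47 overlaps Olfr56 on the same strand, and Dtx3l and Parp9 overlap by 682 bases on opposite strands. The labels do not say whether the libraries kept strand. Irgm2, listed on its own at 4.17, 11.7, 4.70 and 9.58 FPKM, was higher in number 2 like Igtp. The OAS, IFIT, TRIM30 and GTPase genes also have near copies in the mouse, among which reads may have been divided.

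The chain upstream of these genes was expressed in every library, and no gene of it passed between genotypes. Of 10 genes for receptors, kinases and STATs, 0 passed between KI and WT with limma, 0 had an unadjusted p under 0.05, and the median was -0.02. Ifnar1 stood at 10.6, 15.2, 12.3 and 14.8 FPKM. Ifnar2 stood at 38.5, 46.5, 37.96 and 48.7 FPKM. Ifngr2, a receptor chain for interferon-gamma, had the smallest p of this list, at 4.13, 7.21, 6.19 and 8.82 FPKM, higher in KI within each number. Between the numbers, 6 of 10 were called higher and 0 lower, where 35.6% and 4.6% of tested genes were, with a median of 0.33. Under median scaling 1 of 10 was called higher, where 9.1% of tested genes were, and the median was 0.06.

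Of 12 tested genes for sensor adaptors and kinases, none passed between KI and WT with limma, none had an unadjusted p under 0.05, and 6 were called higher in number 2 (35.6% of all genes). Under median scaling 0 of these 12 were called higher and 1 lower (9.1% and 10.5% of all genes). Tlr7, an endosomal RNA receptor, had the smallest p between genotypes, at 2.86, 3.08, 1.58 and 2.04 FPKM, with both KI libraries below both WT libraries. Of 10 feedback inhibitors and repressors, 0 passed between genotypes with limma and 8 were called higher in number 2 (35.6% of all genes), but 0 under median scaling (9.1%). Irf2, a repressor that shields stem cells from interferon in mice, stood at 52.6, 77.3, 42.5 and 65.4 FPKM, lower in KI within each number.

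Of 12 antigen presentation genes, 0 passed between genotypes and 10 were called higher in number 2 (35.6% of all genes), 3 of them also under median scaling (9.1%). These 3 were the immunoproteasome genes Psmb8, Psmb9 and Psmb10, of which Psmb8 stood at 95.9, 162, 103 and 181 FPKM. Of 54 further interferon-induced genes, 0 passed between genotypes and 28 were called higher and 2 lower in number 2, the latter being Aim2 and Cxcl10, beside 35.6% and 4.6% of all genes. Under median scaling 10 were called higher and 3 lower, beside 9.1% and 10.5%. Ly6a, which encodes the Sca-1 of the gate, stood at 24.3, 41.9, 20.7 and 40.4 FPKM and was called higher in number 2 (limma, log2 fold change 0.85, adjusted p = 0.00393). Cxcl10, a chemokine gene that both interferon and inflammatory signals induce, stood at 9.39, 2.16, 6.45 and 2.82 FPKM, opposite to most of the 42 genes. Gbp5, a guanylate-binding protein gene with the smallest p between genotypes in this list, stood at 12.9, 13.7, 10.3 and 10.4 FPKM, with both KI libraries below both WT libraries. The median between genotypes of these 54 was -0.03, against 0.0075 for all tested genes. In both numbers 20 of them were lower in KI (25.5% of all genes) and 13 higher (28.7%).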

How the data were processed

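RNA of sorted LSK cells was sequenced in 4 libraries, 2 per genotype. FPKM values per RefSeq transcript were deposited by the authors. The submitters' processing notes name TopHat, Cufflinks and the build mm10 (GRCm38), and their versions and settings are not given in the sources used here. Beside FPKM, the authors gave normalised log2 values, and spreads and signed folds (scores) and p-values of their own comparison, of which the folds and p-values of member rows were read. FPKM rows were summed per symbol, and the 11083 of 13749 symbols with a mean of at least 1 FPKM were tested on log2(FPKM + 1), a scale that understates changes of low genes. The tests were limma 3.58.1 (R 4.3.3) with a trended prior, two-sided, with Benjamini-Hochberg adjustment at 0.05 over all tested genes, on genotype alone and on library number alone. The script was tested on simulated data that left out the wide difference between the library numbers. That trial does not show what the genotype fit can find in these libraries. The planned test assumed values per gene, whereas the rows were transcripts. Every member was named with its FPKM, and full statistics were given for the 4 smallest p in each direction between genotypes, for members called between numbers and for the 4 smallest p among those lower there. The members and lists were chosen with earlier results of these data known.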

Additional observations from a re-analysis of the deposited data

How the results depend on the processing

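With pseudocount 0.1, no filter, a mean of at least 5 FPKM, median or quantile scaling, the highest transcript row per symbol, the replicate block or any 1 library left out, 0 of the 42 genes were called between KI and WT with limma. Over all genes the replicate block called 1 gene in place of 0, and leaving out 1 library called 7 to 37. Under the block 2 of the 42, Oas2 and Rsad2, had an unadjusted p under 0.05, as did 7.1% of all genes, against 0 without it. The numbers are shared labels and not a stated pairing: the differences of number 2 from number 1 in WT and KI had a Pearson r of 0.69 across 11083 genes, which are not independent replicates. The median of the 42 between KI and WT ran from -0.289 to 0.156 when 1 library was left out, and within numbers 1 and 2 it was -0.091 and -0.062 with the highest transcript row per symbol.

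Between the numbers, genes called fell from 4452 to 2176 under median and 2187 under quantile scaling, and members called from 23 to 9 and 8, with medians of 0.262 and 0.256. Members called numbered 23 with pseudocount 0.1, 20 with no filter and 21 with the highest transcript row per symbol. Of all genes, 39.8%, 27.5% and 30.2% were called there. Members called numbered 22 of 37 with a mean of at least 5 FPKM and 24 with genotype as a term, where 48.7% and 42% of all genes were. Leaving out 1 library gave 1162 to 4808 genes, 6 to 28 members and medians of 0.415 to 0.535. With 1 library left out, the log2 fold change between genotypes ran from -0.023 (without WT-1) to 0.447 for Oasl1, from -0.26 to 0.66 for Igtp and from -0.267 to 0.646 for Usp18, the latter 2 also turning without KI-2 (-0.118 and -0.131). Between numbers it ran from -0.355 to 0.016 (without WT-1) for Oas2 and from -0.192 to 0.0090 (without KI-2) for Ifit2. The cause was not tested. The depth is unknown, and an exact permutation test of 2 against 2 cannot go below p = 0.333.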
